A study of Mus musculus with 24 samples.

Results

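The clustered protocadherins are cell adhesion receptors encoded by 3 neighbouring gene clusters on mouse chromosome 18. The members were every row of the deposited table whose identifier carried, in GENCODE release M21 on GRCm38, a symbol that starts with Pcdha, Pcdhb or Pcdhg, without pseudogenes. The set was selected on its measured levels in these libraries, with the contrasts between them known, so counts over the members below are descriptions. They came to 57 of 30153 rows, with 14 in the alpha cluster, 22 in the beta cluster and 21 in the gamma cluster. Pcdhgb8, annotated as a polymorphic pseudogene, was left out. A pair of identifiers shared the symbol Pcdha11 and are called its first and second copy, in genome order. The alpha cluster spanned chr18:36930184-37187661, the beta cluster chr18:37264938-37524479 and the gamma cluster chr18:37661793-37841873, all on the plus strand.

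RNA was sequenced from 24 mice in 6 groups of 4. Hap-I mice carry the human angiotensin receptor type 1 gene as its haplotype I, Hap-II mice carry it as haplotype II, and both are on the C57/BL6 strain of the C57 mice. The groups were Hap-I aged, Hap-I adult, Hap-I aged on western diet (WD), Hap-I adult on WD, Hap-II adult on WD and C57 adult. For the Hap-I aged, Hap-I adult and C57 adult mice no western diet is named, and they are taken as not having had it. All 24 samples are labelled as kidney. The labels leave out the promoter of the transgenes, the ages in months and the sexes.

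In the alpha and gamma clusters each gene has a promoter and a variable first exon of its own, which encodes the extracellular, membrane and proximal cytoplasmic parts of the receptor. This exon is spliced to constant exons that all genes of that cluster share. Beta genes have no constant exons. In neurons, most promoters of the clusters are chosen at random in each cell through looping by CTCF and cohesin, and the proteins pair with identical partners on other cells, which underlies the self-avoidance of dendrites and axons. The C-type members (Pcdhac1, Pcdhac2, Pcdhgc3, Pcdhgc4 and Pcdhgc5) lie next to the constant exons, and most of them are expressed without random choice in many neurons. In mice, Pcdhgc4 is the gamma member that interneuron survival depends on, Pcdhac2 is known for the spacing of serotonergic axons, and Pcdhgc3 binds Axin1.

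The labelled tissue did not match the markers in 8 libraries. In the Hap-I aged and Hap-I adult libraries, the summed TPM (transcripts per 1000000) of 12 neuron markers was 7059 to 7522 and 5915 to 6854, and that of 10 nephron markers was 1.75 to 9.44 and 1.32 to 17.6. In the other 16 libraries the neuron sum was 1.18 to 14.3 TPM and the nephron sum 616 to 6765 TPM. The 8 libraries are therefore called brain-like, and the other 16 kidney-like. The number of genes above 0 was 18002 to 18761 in the 8 libraries and 15975 to 18449 in the 16. Mitochondrially encoded genes held 11.3 to 26.4% of the deposited TPM in the 8 libraries and 12.4 to 35.7% in the 16. TPM keep no read depth, so the depth behind each value is unknown.

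The members were high in the brain-like libraries and near the bottom of the scale in the kidney-like ones. The split rests on measured values, so no test of it is given. Of the 15200 genes at 1 TPM or more in 4 libraries, 41.3% had all 8 brain-like libraries above all 16 kidney-like ones. That filter was met by 54 members, and all 54 showed this order. Most of them met the filter only through the brain-like libraries, where they were high. Without a filter, the same order held for 56 of 57 members, and no share over all genes is given for that count. The exception was Pcdhb1, at 0.239, 0.0412, 0.0867 and 0.156 TPM in Hap-I aged, at 0, 0.151, 0.0746 and 0.0309 TPM in Hap-I adult, and between 0 and 0.189 TPM in the 16 others. The mean over the 8 libraries was 1 TPM or more for 53 members, and no alpha or beta member reached 1 TPM in any of the 16. Of the gamma members, 12 reached 1 TPM in at least 1 kidney-like library. Pcdhac1 and Pcdha6 were listed at 0 in all 16, although Pcdhac1 averaged 3.00 TPM in the 8. In bulk tissue, fewer cells of a type and less RNA per cell cannot be told apart.

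**Figure D1:**
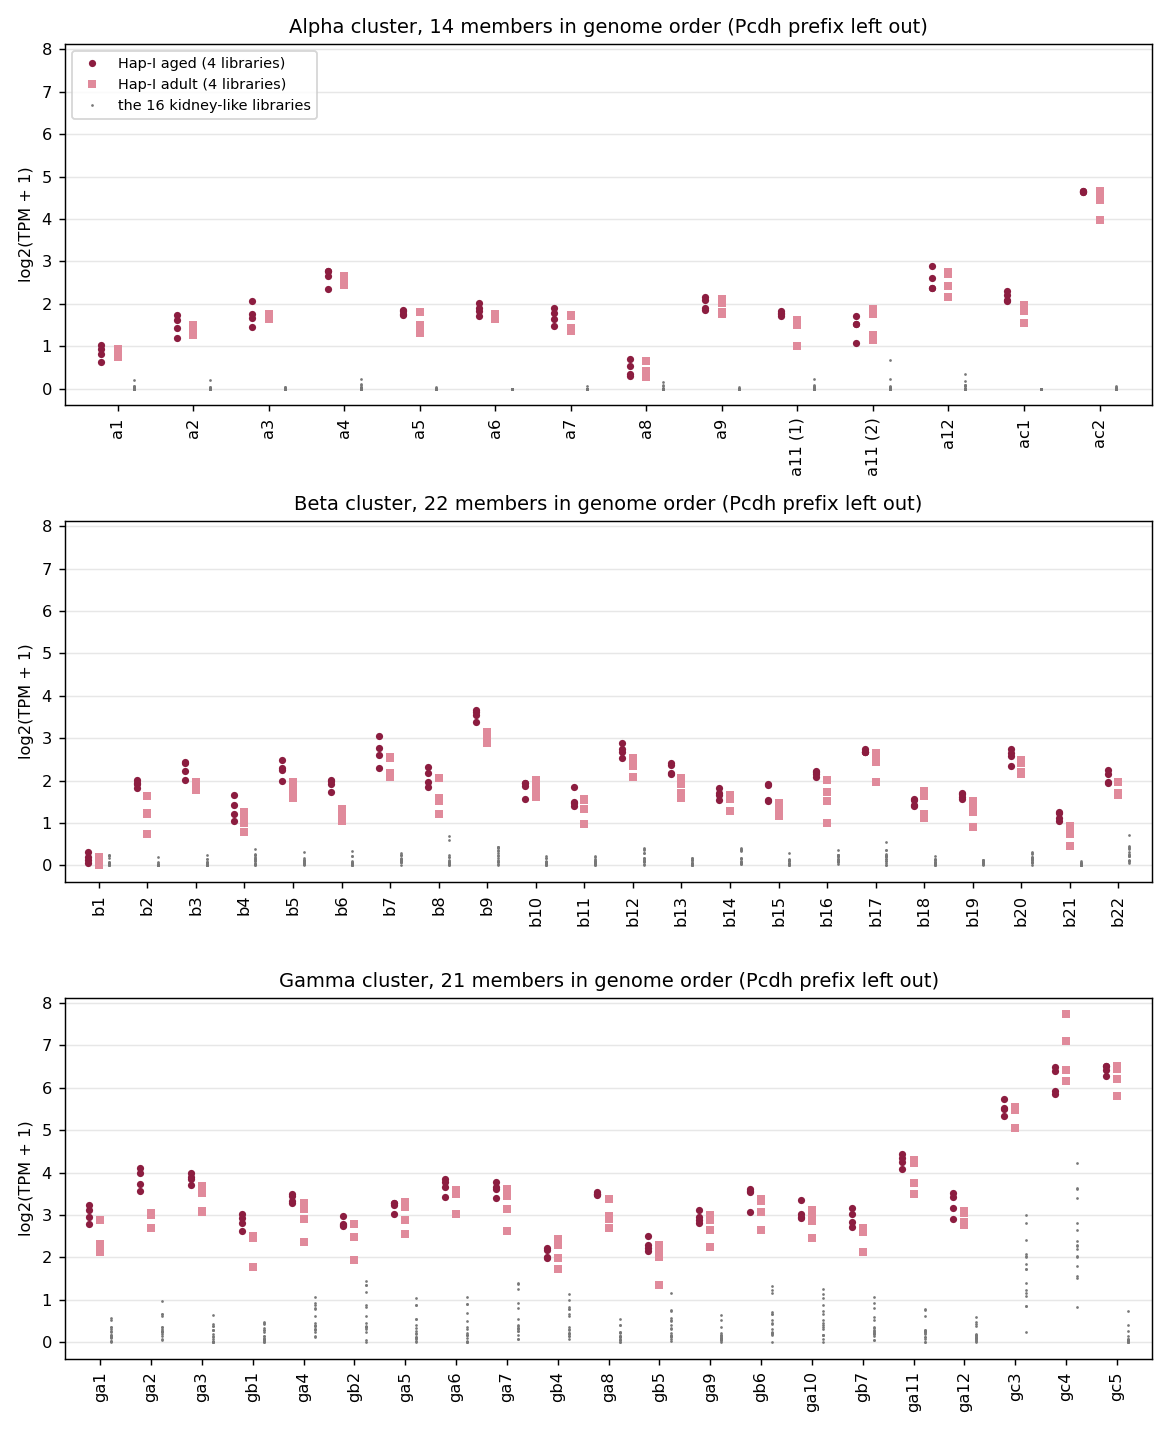
Level of each of the 57 members in every library as log2(TPM + 1), in genome order within the alpha, beta and gamma clusters. Dark circles are the 4 Hap-I aged libraries, light squares the 4 Hap-I adult libraries and grey dots the 16 kidney-like libraries. The C-type members Pcdhgc3, Pcdhgc4 and Pcdhgc5 stand highest in the brain-like libraries, and the kidney-like libraries rise off the bottom mainly at Pcdhgc4 and Pcdhgc3.

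The gamma cluster held most of the signal in both sets. Summed over its 21 members it came to 364, 320, 394 and 389 TPM in the Hap-I aged libraries, against 385, 345, 318 and 410 TPM in the Hap-I adult ones. The beta members summed to 79.1, 67.5, 78.6 and 76.7 TPM in Hap-I aged and to 41.8, 64.3, 52.3 and 53.3 TPM in Hap-I adult. The alpha members summed to 57.8, 54.9, 60.3 and 58.4 TPM in Hap-I aged and to 40.3, 58.3, 52.0 and 49.7 TPM in Hap-I adult. All 4 aged beta sums lay above all 4 adult ones, whereas the alpha and gamma sums overlapped. The gamma share of the summed TPM was 75.6 ± 3.64% in the 8 libraries (SD, n = 8) and 85.2 ± 4.02% in the 16 (SD, n = 16). The alpha share was 11.2 ± 1.39% in the 8 and 1.51 ± 1.24% in the 16, while the beta share was 13.2 ± 2.46% and 13.3 ± 3.30%.

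**Figure D2:**
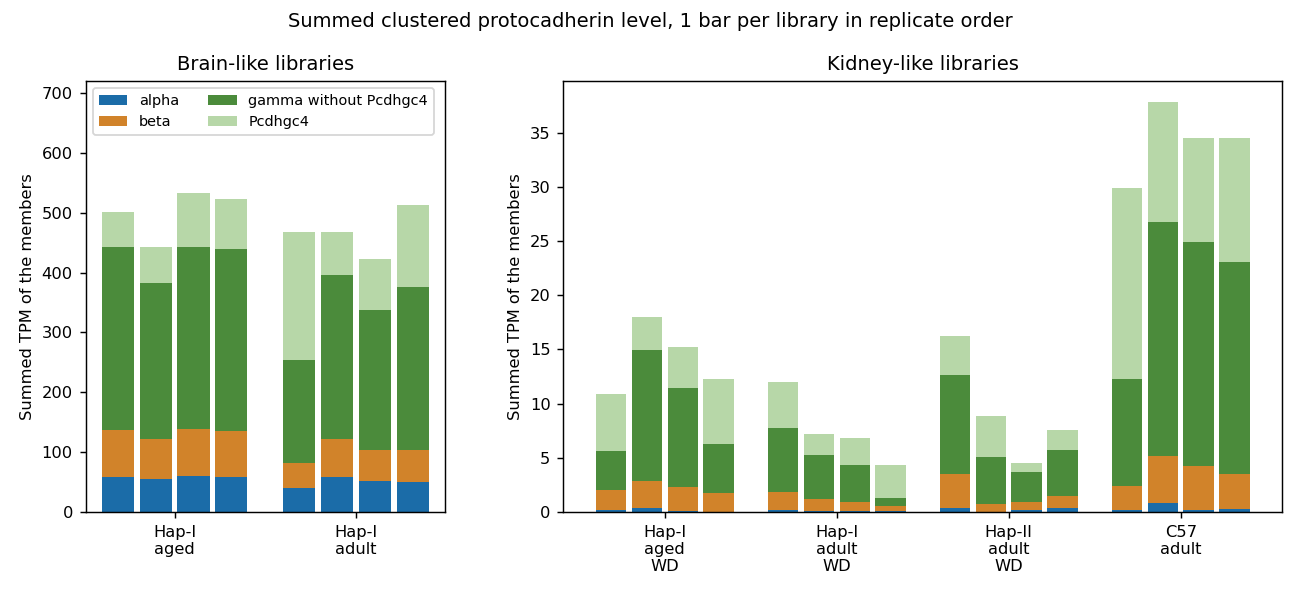
Summed TPM of the members in each library, split into alpha, beta, gamma without Pcdhgc4, and Pcdhgc4. The left panel shows the brain-like libraries, between 422 and 533 TPM, and the right panel, on its own scale, the kidney-like libraries, between 4.29 and 37.9 TPM. The Pcdhgc4 part is largest in Hap-I adult library 1 on the left and in C57 library 1 on the right.

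The 5 C-type members made up 51.5 ± 7.92% of the summed TPM in the 8 brain-like libraries and 51.6 ± 12.6% in the 16 kidney-like ones. Pcdhgc4 was the highest member by mean in both sets, with 20.7 ± 11.1% of the summed TPM in the 8 and 35.4 ± 15.1% in the 16, while Pcdhgc5 and Pcdhac2 were high in the 8 alone. Pcdhgc5, linked in the rodent brain to GABA-A receptor synapses, was at 90.0, 76.9, 84.8 and 90.3 TPM in Hap-I aged and at 54.7, 85.7, 72.4 and 89.8 TPM in Hap-I adult. In the 16 kidney-like libraries it stayed between 0 and 0.670 TPM. Pcdhac2 was at 24.2, 24.4, 24.0 and 23.9 TPM in Hap-I aged and at 14.7, 24.4, 20.9 and 21.3 TPM in Hap-I adult, and was listed at 0 in 12 of the 16 others. Pcdhgc3 was at 44.3, 39.3, 44.9 and 52.5 TPM in Hap-I aged and at 32.2, 43.7, 46.0 and 44.0 TPM in Hap-I adult. Pcdhac1 was the lowest of the C-type members, at 3.59, 3.24, 3.93 and 3.21 TPM in Hap-I aged and at 1.94, 2.53, 2.93 and 2.66 TPM in Hap-I adult. The 3 defining genes of serotonergic neurons, in which Pcdhac2 is known to act, summed to no more than 1.29 TPM in Hap-I aged and 1.32 TPM in Hap-I adult libraries.

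Pcdhgc4 varied most of the 5 C-type members. It was at 57.3, 59.5, 89.3 and 83.9 TPM in Hap-I aged and at 213, 70.8, 84.5 and 137 TPM in Hap-I adult. Hap-I adult library 1 had the highest Pcdhgc4 level of the 8 and at the same time the lowest level of 43 of the 57 members. Pcdhgc4 was the single member highest in that library. Pcdhgc4 took 19.7 ± 3.12% of the gamma sum in Hap-I aged and 34.0 ± 15.2% in Hap-I adult (SD, n = 4 each). Without it, the gamma members summed to 306, 260, 305 and 305 TPM in Hap-I aged, against 172, 274, 233 and 273 TPM in Hap-I adult.

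The annotation bears on how Pcdhgc4 can be read. The constant exons contributed 2860 bases to alpha transcripts and 2119 bases to gamma transcripts. Of all 31-base words in a member's longest coding transcript, the share also found in another member had a median of 62.6% in the alpha cluster (48.4 to 70.2%), 11.8% in the beta cluster (0.0 to 22.5%) and 47.0% in the gamma cluster (41.7 to 67.8%). At Pcdhgc4, the annotated coding transcript Pcdhgc4-203 is 2272 bases long, of which 2119 are constant exons and 153 are its own. A read from the gamma constant exons therefore matches this short transcript as well as the long transcripts of the other gamma members. How the deposited values divided such reads was not tested, and alpha and gamma values are uncertain to that extent.

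**Figure D3:**
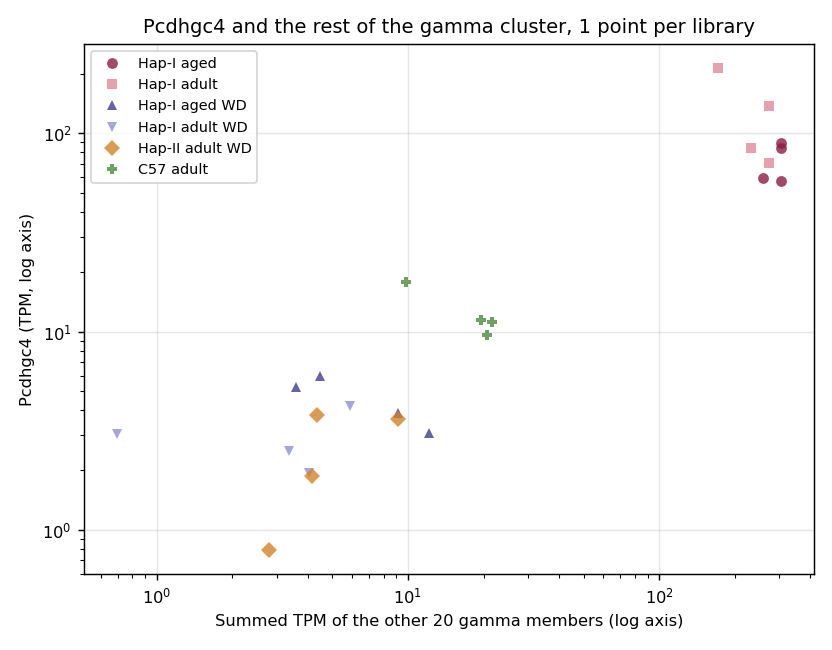
Pcdhgc4 against the summed TPM of the other 20 gamma members, 1 point per library, both axes logarithmic. The 8 brain-like libraries form the upper right group, where Hap-I adult library 1 combines the highest Pcdhgc4 level (213 TPM) with the lowest sum of the others (172 TPM). C57 library 1 holds the corresponding place among the C57 libraries.

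The remaining alpha members had means between 0.367 and 5.06 TPM over the 8 libraries. Pcdha4 led them at 5.28, 5.88, 5.78 and 4.06 TPM in Hap-I aged and 4.66, 5.01, 5.34 and 4.48 TPM in Hap-I adult. Pcdha12 followed at 4.19, 4.17, 6.37 and 5.10 TPM in Hap-I aged and 4.38, 5.71, 5.51 and 3.43 TPM in Hap-I adult. The second copy of Pcdha11 was at 1.86, 1.11, 2.29 and 1.89 TPM in Hap-I aged and at 1.22, 2.38, 2.68 and 1.40 TPM in Hap-I adult, fully overlapping. The lowest was Pcdha8, at 0.230 to 0.635 TPM in Hap-I aged and 0.207 to 0.561 TPM in Hap-I adult. The 12 alpha members without the C-types together gave 30.2 ± 2.20 TPM in Hap-I aged and 27.2 ± 3.30 TPM in Hap-I adult (SD, n = 4 each), while Pcdhac2 alone gave 24.1 ± 0.217 TPM and 20.3 ± 4.09 TPM.

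The beta members, single-exon receptors without a constant cytoplasmic part, ranged in their mean over the 8 libraries from 0.0974 TPM for Pcdhb1 to 8.86 TPM for Pcdhb9. Pcdhb9 was at 11.8, 9.39, 10.7 and 11.2 TPM in Hap-I aged, against 6.97, 7.84, 6.42 and 6.64 TPM in Hap-I adult, without overlap. Pcdhb12 was at 6.42, 4.75, 5.36 and 5.73 TPM in Hap-I aged and at 3.23, 4.76, 4.40 and 4.09 TPM in Hap-I adult, where the groups just touched. Pcdhb17 was at 5.73, 5.39, 5.39 and 5.39 TPM in Hap-I aged, all above the 2.94, 5.32, 4.48 and 4.41 TPM in Hap-I adult. Pcdhb22, among the highest beta members in the kidney-like libraries, was at 3.76, 2.83, 2.93 and 3.47 TPM in Hap-I aged and at 2.18, 2.92, 2.25 and 2.92 TPM in Hap-I adult, with overlap.

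Within the gamma cluster, the 12 A-type members summed to 127 ± 12.3 TPM in Hap-I aged and 93.1 ± 20.3 TPM in Hap-I adult, and the 6 B-type members to 36.2 ± 1.74 TPM and 27.8 ± 7.08 TPM (SD, n = 4 each). Gamma B genes lie interspersed among the gamma A genes, and both types are chosen at random in neurons. Pcdhgb4 was the lowest gamma member, at 2.93 to 3.70 TPM in Hap-I aged and 2.33 to 4.38 TPM in Hap-I adult. Every gamma member exceeded 1 TPM in all 8 libraries.

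The first tested question was age without western diet, Hap-I aged against Hap-I adult, in the brain-like libraries. No member passed the test. Of 57 members, 54 passed the filter of 1 TPM in at least 4 of the 8 libraries, and 0 of these 54 were called by limma at an adjusted p under 0.05, beside 0.0296% of 13497 genes. Pcdha1, Pcdha8 and Pcdhb1 fell short of the filter. At an unadjusted p under 0.05, 20 of 54 members were higher in aged mice (1 of 12 alpha, 12 of 21 beta and 7 of 21 gamma), against 14.2% of all genes tested. On the same measure 1 member, Pcdhgc4, was lower, against 1.23% of all genes. In 19 of 54 members all aged libraries lay above all adult ones (2 alpha, 11 beta and 6 gamma), against 10.5% of all genes. Both counts of higher members hold Pcdhb21, singled out after its values were seen, which passed the filter only through Hap-I aged. It was at 1.08 to 1.38 TPM in Hap-I aged and at 0.375 to 0.895 TPM in Hap-I adult, so its place there is partly set by the filter. On the deposited scale, before any rescaling, the estimated change was positive for 51 of 54 members and for 72.9% of all genes. The median log2 change of the members was 0.32, and by cluster it was 0.11 for alpha, 0.37 for beta and 0.33 for gamma, beside 0.12 over all genes. Under median-of-ratios rescaling the median of all genes was -0.01, that of the members 0.20, that of alpha 0.02, that of beta 0.28 and that of gamma 0.20.

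The largest estimates on the log2(TPM + 1) scale were in gamma A and beta members. The next 3 members were chosen after their values were seen. Pcdhga2 was at 16.3, 10.8, 14.9 and 12.3 TPM in Hap-I aged, against 5.47, 7.27, 6.94 and 7.04 TPM in Hap-I adult, a log2 difference of 0.92 ± 0.15 (SE; limma adjusted p = 0.139). Pcdhb6 was at 2.96, 2.31, 3.07 and 2.79 TPM in Hap-I aged, against 1.09, 1.06, 1.41 and 1.50 TPM in Hap-I adult, a log2 difference of 0.74 ± 0.14 (limma adjusted p = 0.148). Pcdhb2 was at 2.79, 2.54, 3.07 and 2.85 TPM in Hap-I aged, against 0.677, 2.10, 1.35 and 1.31 TPM in Hap-I adult, with a log2 difference of 0.72 ± 0.18 (limma adjusted p = 0.210). The groups did not overlap in any of these 3, yet none passed the threshold. Pcdhb9, the highest beta member, differed by 0.56 ± 0.12 on the log2 scale (limma adjusted p = 0.154). Among the other members followed, the limma adjusted p was 0.284 for Pcdhb12, 0.356 for Pcdhb17, 0.407 for Pcdhb22, 0.430 for Pcdhgb2, 0.807 for Pcdha4 and 0.911 for Pcdha12.

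None of the C-type members passed the test either. The log2 difference between Hap-I aged and Hap-I adult was 0.36 ± 0.14 for Pcdhac1 (limma adjusted p = 0.275), 0.26 ± 0.15 for Pcdhac2 (0.407), 0.13 ± 0.14 for Pcdhgc3 (0.677) and 0.20 ± 0.15 for Pcdhgc5 (0.540). For Pcdhgc4 it was -0.69 ± 0.31 (limma adjusted p = 0.317), with group means of 72.5 ± 16.5 TPM in Hap-I aged and 126 ± 64.5 TPM in Hap-I adult (SD, n = 4 each). These values moved most without Hap-I adult library 1, to -0.39 for Pcdhgc4, 0.12 for Pcdhac2, 0.01 for Pcdhgc3 and 0.05 for Pcdhgc5. Over all libraries left out in turn, Pcdhgc4 ran from -0.92 to -0.39, Pcdhac2 from 0.12 to 0.35, Pcdhgc3 from 0.01 to 0.19 and Pcdhgc5 from 0.05 to 0.29. The summed gamma level gave a log2 ratio of group means of 0.01, and 0.30 without Pcdhgc4. The corresponding log2 ratios were 0.51 for the beta sum and 0.21 for the alpha sum.

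**Figure D4:**
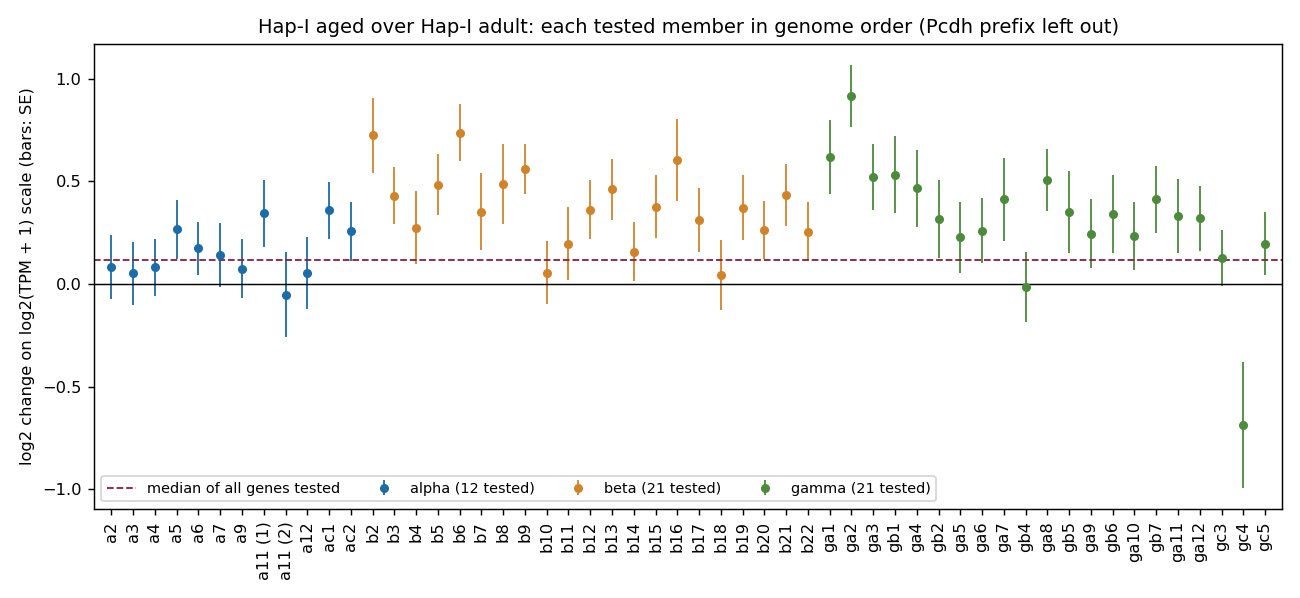
Log2 difference between Hap-I aged and Hap-I adult, with its standard error, for the 54 members tested, in genome order; the dashed line is the median of all 13497 genes tested (0.12). Most alpha members lie at that line, most beta and gamma members lie above it, and Pcdhgc4 lies below at -0.69.

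These counts rested partly on the fit and on Hap-I adult library 1. When the spread was estimated over all 24 libraries, 9 members (7 beta and 2 gamma) were called higher in Hap-I aged, against 0.382% of 15200 genes called higher. The limma adjusted p was then 0.000962 for Pcdhb6, 0.00264 for Pcdhga2 and 0.0101 for Pcdhb9. Pcdhb6 was at 0 to 0.270 TPM in the 16 kidney-like libraries, where log2(TPM + 1) can hardly vary. The pooled spread thus comes in part from libraries where most members lay near 0. Why the p-values were smaller in that fit was not tested, and no age difference is read from these calls. Without Hap-I adult library 1, 0 members were called, beside 0.00745% of all genes, 13 members were higher at an unadjusted p under 0.05 against 12.1% of all genes, 0 were lower, and the members' median log2 change was 0.20.

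Markers of other cells differed between the same groups. The marker counts stand beside 14.2% of all genes higher and 1.23% lower at an unadjusted p under 0.05. Oligodendrocyte markers summed to 5142 ± 616 TPM in Hap-I aged and 3509 ± 461 TPM in Hap-I adult, and 7 of 7 were higher at an unadjusted p under 0.05. Of 12 neuron markers, 5 were higher on that measure, and their sum was 7059 to 7522 TPM in Hap-I aged and 5915 to 6854 TPM in Hap-I adult. Stroma and smooth muscle markers summed to 49.0 ± 16.7 TPM in Hap-I aged and 92.6 ± 24.0 TPM in Hap-I adult, with 4 of 8 tested lower on that measure. Single libraries stood apart in regional markers. The 4 striatal neuron markers summed to 65.4 to 126 TPM in Hap-I aged and to 77.3, 82.3, 79.0 and 779 TPM in Hap-I adult, with a median log2 change of -0.79 and 0 of 4 past an unadjusted p of 0.05. The 5 choroid plexus markers summed to 44.6 to 951 TPM in Hap-I aged and to 428, 5601, 21.0 and 25.1 TPM in Hap-I adult. Whether the same brain parts were sampled in each library cannot be read from the labels. No marker in any of these lists passed the adjusted threshold. The part of cell composition or brain region in the members' differences was not tested.

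Genes that act with the clustered protocadherins were read in the same fit, and none was called between Hap-I aged and Hap-I adult. The counts below stand beside 14.2% of all genes higher at an unadjusted p under 0.05 and a median log2 change of 0.12. Of 24 regulators of their promoters, 6 were higher on that measure (median 0.25). Ctcf, the looping factor, was at 47.4 ± 2.34 TPM in Hap-I aged and 34.5 ± 5.89 TPM in Hap-I adult, a log2 difference of 0.46 (limma adjusted p = 0.211). The cohesin subunit Rad21 differed by 0.26 and the silencing factor Smchd1 by 0.01. Of 25 partners and signalling genes, 9 were higher on that measure (median 0.26), and Adam10, the protease that sheds protocadherin ectodomains, differed by 0.26. Of 15 genes beside the clusters on the chromosome, 1 was higher on that measure, with a median of 0.01. Among other cadherins, 3 of 12 non-clustered protocadherins, 1 of 6 large atypical cadherins and 1 of 13 classical cadherins were higher, and Celsr3, which steers axon tracts, differed by 0.36.

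In the kidney-like libraries the members were a small signal carried by the gamma cluster. All 57 summed to 10.9, 18.0, 15.3 and 12.2 TPM in Hap-I aged WD, to 11.96, 7.15, 6.78 and 4.29 TPM in Hap-I adult WD, to 16.3, 8.89, 4.49 and 7.55 TPM in Hap-II adult WD, and to 29.9, 37.9, 34.5 and 34.5 TPM in C57 adult. All 4 C57 libraries lay above all 12 libraries on the diet. Between 8 and 34 members were listed at 0 in a library, the most of them in Hap-I adult WD library 4. Pcdhgc4, Pcdhgc3 and Pcdhgb2 passed the filter of 1 TPM in 4 of the 16 libraries, and the other 54 did not, so the tests below speak for 3 gamma members alone.

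Pcdhgc4 led in 14 of the 16 kidney-like libraries. It was at 5.23, 3.06, 3.88 and 5.98 TPM in Hap-I aged WD, at 4.22, 1.93, 2.49 and 3.04 TPM in Hap-I adult WD, at 3.61, 3.79, 0.791 and 1.88 TPM in Hap-II adult WD, and at 17.7, 11.2, 9.59 and 11.4 TPM in C57 adult. Pcdhgc3 was at 0.815, 3.08, 3.24 and 2.30 TPM in Hap-I aged WD, at 2.61, 1.12, 1.24 and 0.181 TPM in Hap-I adult WD, at 2.30, 1.62, 0.808 and 1.34 TPM in Hap-II adult WD, and at 3.03, 6.96, 6.04 and 4.34 TPM in C57 adult. Pcdhgb2 was at 0.286, 1.27, 0.833 and 0.188 TPM in Hap-I aged WD, at 0.289, 0.363, 0.306 and 0.0408 TPM in Hap-I adult WD, at 0.779, 0.241, 0 and 0.285 TPM in Hap-II adult WD, and at 0.524, 1.71, 1.55 and 1.56 TPM in C57 adult. C57 libraries were highest for all 3 genes, except that C57 library 1 was low for Pcdhgc3 and Pcdhgb2 while it was highest for Pcdhgc4.

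**Figure D5:**
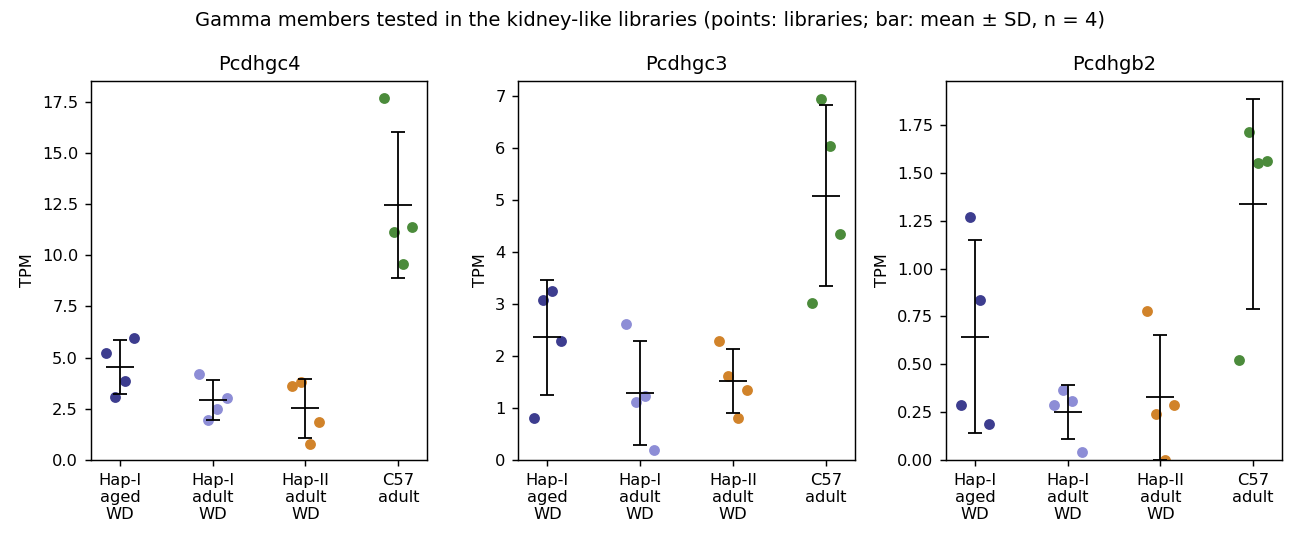
Pcdhgc4, Pcdhgc3 and Pcdhgb2 in each of the 16 kidney-like libraries, by group, with the mean and SD (n = 4). The C57 adult libraries stand above the diet groups for Pcdhgc4 in every library, and the 3 diet groups overlap one another for all 3 genes.

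Age on western diet was asked by setting Hap-I aged WD against Hap-I adult WD. The estimates of all 3 members were above 0, and none passed the test, beside 0.031% of 12923 genes called. At an unadjusted p under 0.05 it was also 0 of 3, against 16.1% of all genes. The log2 difference was 0.50 ± 0.31 for Pcdhgc4 (limma adjusted p = 0.397), 0.59 ± 0.34 for Pcdhgc3 (0.373) and 0.35 ± 0.25 for Pcdhgb2 (0.435), beside a median of 0.32 over all genes. The libraries of the groups overlapped for each gene. Of the followed members too low for the test, Pcdhb22 averaged 0.277 ± 0.0948 TPM in Hap-I aged WD and 0.0954 ± 0.0469 TPM in Hap-I adult WD (SD, n = 4 each). Pcdhb9 averaged 0.275 ± 0.0829 TPM in Hap-I aged WD and 0.0875 ± 0.0310 TPM in Hap-I adult WD. Pcdhb17 averaged 0.158 ± 0.0576 TPM in Hap-I aged WD and 0.0923 ± 0.0662 TPM in Hap-I adult WD. Pcdhb12 averaged 0.144 ± 0.115 TPM in Hap-I aged WD and 0.0560 ± 0.0375 TPM in Hap-I adult WD. These low means stand beside the rise of 0.32 in the median of all genes, and no age difference is read from them. Pcdha4, Pcdha12 and the second copy of Pcdha11 were listed at 0 in 2 or more libraries of each group. Endothelial markers summed to 227 ± 34.0 TPM in Hap-I aged WD and 149 ± 27.7 TPM in Hap-I adult WD, and 6 of 7 were higher at an unadjusted p under 0.05. On that measure 7 of 7 microglia and macrophage markers were also higher (median log2 change 1.14), with sums of 141 ± 40.3 TPM in Hap-I aged WD and 57.1 ± 32.1 TPM in Hap-I adult WD. B and plasma cell markers summed to 994 ± 456 TPM in Hap-I aged WD and 145 ± 74.6 TPM in Hap-I adult WD, with 3 of 5 higher (median 1.93), and 5 of 9 stroma and smooth muscle, 3 of 5 podocyte and 2 of 4 T cell markers were higher. No marker passed the adjusted threshold. Their part in the members' values was not tested.

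Haplotype on western diet was asked by setting Hap-I adult WD against Hap-II adult WD. No member passed the test, beside 0.0774% of 12923 genes called, and at an unadjusted p under 0.05 it was also 0 of 3, against 3.26%. The log2 difference was 0.23 ± 0.31 for Pcdhgc4 (limma adjusted p = 0.827), -0.06 ± 0.25 for Pcdhgb2 (0.933) and -0.21 ± 0.34 for Pcdhgc3 (0.843), beside a median of -0.22 over all genes, and every one of these groups overlapped.

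The last question set each haplotype on the diet against C57 adult mice, so that the transgene and the diet cannot be told apart, and both comparisons share the C57 libraries. All 3 members tested fell in both, on a scale where much of the transcriptome did. Pcdhgc4 averaged 2.92 ± 0.975 TPM in Hap-I adult WD and 12.5 ± 3.57 TPM in C57 adult (SD, n = 4 each), a log2 difference of -1.78 ± 0.31 (limma adjusted p = 0.00106). Pcdhgc3 averaged 1.29 ± 1.00 TPM in Hap-I adult WD and 5.09 ± 1.75 TPM in C57 adult, a log2 difference of -1.47 ± 0.34 (limma adjusted p = 0.00308). Pcdhgb2 averaged 0.250 ± 0.143 TPM in Hap-I adult WD and 1.34 ± 0.548 TPM in C57 adult, a log2 difference of -0.87 ± 0.25 (limma adjusted p = 0.00752). Pcdhgb2 reached 1 TPM only in C57 adult (1.71, 1.55 and 1.56 TPM) and in a Hap-I aged WD library (1.27 TPM). It thus entered both comparisons mainly through the group where it was high, so its fall is a description. Of all genes tested, 59.7% were called lower, and the median log2 change was -0.80.

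In Hap-II adult WD, Pcdhgc4 averaged 2.52 ± 1.44 TPM, against 12.5 ± 3.57 TPM in C57 adult, a log2 difference of -2.01 ± 0.31 (limma adjusted p = 0.000977). Pcdhgc3 averaged 1.52 ± 0.620 TPM in Hap-II adult WD, a log2 difference of -1.26 ± 0.34 (limma adjusted p = 0.0135), and Pcdhgb2 0.326 ± 0.327 TPM, a log2 difference of -0.81 ± 0.25 (limma adjusted p = 0.0201). The Pcdhgb2 libraries overlapped, with Hap-II adult WD library 1 at 0.779 TPM and C57 library 1 at 0.524 TPM. In this comparison 36.9% of all genes were called lower, with a median of -0.59. Without Hap-II adult WD library 3, 1 of the 3 members was called.

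Once libraries were rescaled so that the median of all genes lay within 0.01 of 0, the differences from C57 shrank. By median-of-ratios, Pcdhgb2 no longer passed the filter. Pcdhgc4 differed by -0.91 (limma adjusted p = 0.0469) and Pcdhgc3 by -0.84 (0.0333) between Hap-I adult WD and C57 adult, and by -1.42 (0.0111) and -0.72 (0.0735) between Hap-II adult WD and C57 adult. All genes called lower were then 14% in Hap-I adult WD and 9.54% in Hap-II adult WD. By quantile normalization 0 of 3 members were called for Hap-I adult WD and 1 of 3, Pcdhgc4, for Hap-II adult WD, against 14.6% and 10.9% of all genes. Without a filter on low values, 28 of 55 members were called lower in Hap-I adult WD (10 beta and 18 gamma, against 37.6% of genes called lower) and 23 of 55 in Hap-II adult WD (6 beta and 17 gamma, against 21.6%). The gamma members summed to 6.41 ± 2.66 TPM in Hap-I adult WD, 7.63 ± 3.90 TPM in Hap-II adult WD and 30.4 ± 2.16 TPM in C57 adult.

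Several measured properties moved with these groups. The mitochondrially encoded share of TPM was 30.4 ± 4.03% in Hap-I adult WD, 24.4 ± 3.06% in Hap-II adult WD and 15.2 ± 2.13% in C57 adult (SD, n = 4 each). Nephron markers summed to 616 to 1809 TPM in Hap-I adult WD, 908 to 4120 TPM in Hap-II adult WD and 4168 to 6765 TPM in C57 adult. Stroma and smooth muscle markers summed to 57.7 ± 24.2 TPM in Hap-I adult WD, 42.4 ± 6.90 TPM in Hap-II adult WD and 212 ± 61.1 TPM in C57 adult. Neuron markers summed to 1.18 to 4.52 TPM in Hap-I adult WD, 1.36 to 4.91 TPM in Hap-II adult WD and 7.59 to 14.3 TPM in C57 adult. The 4 Y-linked genes summed to 0.868 to 38.2 TPM in Hap-I adult WD, 0.485 to 40.2 TPM in Hap-II adult WD and 0.730 to 0.954 TPM in C57 adult. The part of each in the members' differences was not tested.

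On the deposited scale related genes fell as well, though rescaling removed much of this. The counts called lower stand beside 59.7% of all genes in Hap-I adult WD (median log2 change -0.80) and 36.9% in Hap-II adult WD (median -0.59). Of 24 promoter regulators, 21 were called lower and 0 higher in Hap-I adult WD than in C57 adult (median log2 change -1.16), and 15 lower and 0 higher in Hap-II adult WD (median -0.93). Ctcf averaged 9.14 ± 2.62 TPM in Hap-I adult WD and 21.8 ± 5.34 TPM in C57 adult, a log2 difference of -1.18 (limma adjusted p = 0.00313), and the cohesin subunit Smc1a 4.66 ± 0.693 TPM and 26.6 ± 6.24 TPM, a log2 difference of -2.26 (0.000825). Smchd1 averaged 3.81 ± 0.459 TPM in Hap-I adult WD and 10.8 ± 1.40 TPM in C57 adult, a log2 difference of -1.29 (limma adjusted p = 0.000825). Of 8 classical cadherins tested, 8 were lower in Hap-I adult WD and 7 in Hap-II adult WD, led by the kidney cadherin Cdh16, at 7.32 ± 4.27 TPM in Hap-I adult WD, 11.3 ± 8.52 TPM in Hap-II adult WD and 55.7 ± 9.52 TPM in C57 adult. Among non-clustered protocadherins 4 of 5 were lower in each comparison, and Pcdh1 averaged 4.53 ± 1.22 TPM in Hap-I adult WD, 6.49 ± 3.86 TPM in Hap-II adult WD and 16.7 ± 3.19 TPM in C57 adult. Large atypical cadherins were lower in 3 of 3, partners and signalling genes in 18 of 21 for Hap-I adult WD and 12 of 21 for Hap-II adult WD (1 higher in each, Pdcd10), and genes beside the clusters in 10 of 14 and 7 of 14. By median-of-ratios, where 14% of all genes were lower in Hap-I adult WD and 9.54% in Hap-II adult WD, 7 of 24 regulators were lower and 2 higher in Hap-I adult WD, and 6 were lower and 1 higher in Hap-II adult WD. Ctcf then differed by -0.23 in Hap-I adult WD and by 0.06, the opposite sign, in Hap-II adult WD, and passed in neither. Smc1a, at -1.33 in Hap-I adult WD and -0.99 in Hap-II adult WD, and Smchd1, at -0.41 and -0.37, were still called lower in both. By quantile normalization Smc1a was called lower in both (-1.38 and -1.05), and Smchd1 in neither (-0.33 and -0.30). Classical cadherins were lower in 6 of 8 in each comparison by median-of-ratios and by quantile normalization alike. By median-of-ratios the genes beside the clusters had medians of 0.05 in Hap-I adult WD and 0.06 in Hap-II adult WD. By quantile normalization those medians were 0.099 and -0.044.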

How the data were processed

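Bulk poly(A) RNA was sequenced in 24 libraries, per the labels' protocols. The authors deposited TPM values per Ensembl gene, and the tools listed in the submitters' processing notes are kallisto and DESeq2, on GRCm38, without roles. Deposited TPM summed to 904693 to 944019 per library. TPM keep no depth, so no counting interval is given. Genes were named from GENCODE M21. Groups came from the labels, and whether replicates were handled in batches is not given in the sources used here.

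For each comparison, log2(TPM + 1) was tested with limma 3.58.1 in R 4.3.3 (moderated test with trend, two-sided), keeping genes that reached 1 TPM in 4 or more libraries of the fit. The brain-like fit held 8 libraries and the kidney-like fit 16 in 4 groups. P-values were adjusted by Benjamini-Hochberg over all genes tested, with a threshold of 0.05. The fit was tested on simulated data. The 16 members followed in the alternatives, and the related lists and markers, were chosen with earlier results of these data known. Named members were the C-types, the 3 highest and the lowest of each cluster by mean TPM over the brain-like libraries, the 3 highest of each cluster over the kidney-like libraries, and those past the threshold; others are marked as chosen after their values were seen. Ctcf, Smchd1, Rad21, Adam10 and Celsr3 were always named, with up to 4 called genes per list. Alternatives varied the pseudocount, filter, scaling, libraries and weights.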

Additional observations from a re-analysis of the deposited data

Results flagged for a closer look

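In 68 groups of 4 libraries tested for a library far from the others of its group, 5 were found, and chance gives about 1 in 20. Pcdhgc3 in Hap-I adult had its lowest library, library 1, at 32.2 TPM, with the nearest at 43.7 TPM. Pcdhb17 in Hap-I aged had its highest library, library 1, at 5.73 TPM, with the nearest at 5.39 TPM. Pcdhgb2 in C57 adult had its lowest library, library 1, at 0.524 TPM, with the nearest at 1.55 TPM. The summed alpha members in C57 adult were highest in library 2 at 0.844 TPM, with the nearest at 0.243 TPM, and 0.603 TPM of that sum was the second copy of Pcdha11. The gamma members without Pcdhgc4 in Hap-I aged were lowest in library 2 at 260 TPM, with the nearest at 305 TPM.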

How the results depend on the processing

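Between Hap-I aged and Hap-I adult, genes called numbered 4, against 1 with a pseudocount of 0.1 or no filter. They numbered 65 over all 24 libraries and 1 to 5 without a single replicate. Members called numbered 0, against 9 over all 24 libraries, a fit that takes part of its spread from kidney-like libraries where most members lay near 0. Among the followed members alone, rescaling or weights changed the sign of 3. Pcdhgc3 gave -0.011, Pcdha4 -0.037 and Pcdha12 -0.067 under median-of-ratios, and -0.0058, -0.055 and -0.075 under quantile normalization. Pcdha12 gave -0.038 with array weights. Signs of the members not followed are not given in this section. Leaving out 1 replicate changed the sign of Pcdha12 and 2 other followed members. The ranges were -0.066 to 0.13 for Pcdha12, -0.17 to 0.076 for the second copy of Pcdha11 and -0.14 to 0.090 for Pcdhgb4. The gamma sum ran from -0.05 to 0.07, and it was 0.30 without Pcdhgc4, an alternative chosen after seeing the data.

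Between Hap-I aged WD and Hap-I adult WD, genes called numbered 4, against 443 over all 24 libraries, 2 in the compared groups alone, 2199 with array weights and 2 to 22 without a replicate. The alpha sum then ran from -0.08 to 1.18. Between Hap-I adult WD and Hap-II adult WD they numbered 10, against 51 with array weights and 4 to 7 without a replicate. Pcdhgb2 gave 0.032 by quantile normalization and 0.059 with array weights. Without a replicate Pcdhgc3 gave -0.47 to 0.069, Pcdhgc4 -0.057 to 0.42, Pcdhgb2 -0.19 to 0.090, the beta sum -0.84 to 0.24 and the gamma sum -0.56 to 0.12. Same-numbered libraries had correlations of deviations from 0.0426 to 0.469 and from -0.0483 to 0.539, so the numbers were not taken as pairs; a replicate block gave 30 and 17 genes and called 0 members in both.

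Between Hap-I adult WD and C57 adult, members called lower numbered 3, against 28 with no filter, 1 at a 5 TPM filter and 0 by quantile normalization. They numbered 6 without mitochondrial genes, 18 over 24 libraries and 2 to 3 without a replicate (2 without C57 library 2, 3 or 4). The fit over 24 libraries admits 54 members, most of them only through the brain-like libraries, which are not compared here. Its count is thus not like the others. Genes called numbered 8009 (294 higher, 7715 lower), against 4097 (2317 higher, 1780 lower) by median-of-ratios, 3910 by quantile normalization and 6042 to 8104 without a replicate. The sums by median-of-ratios were -0.84 for alpha, -0.80 for beta and -1.29 for gamma, and the alpha sum without a replicate ran from -2.12 to -0.96. Between Hap-II adult WD and C57 adult, members numbered 3, against 23 with no filter, 1 at a 5 TPM filter, 1 by median-of-ratios and 1 by quantile normalization. They numbered 5 without mitochondrial genes, 16 over 24 libraries, with the same limit, and 1 to 3 without a replicate. Genes numbered 5127 (353 higher, 4774 lower), against 2876 (1661 higher, 1215 lower) by median-of-ratios, 2915 by quantile normalization, 9706 with array weights and 1803 (without Hap-II adult WD library 3) to 6961 without a replicate. The gamma sum by median-of-ratios was -1.38, and the alpha sum without a replicate ran from -0.99 to 0.23. The causes were not tested.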
